A study of Mus musculus with 10 samples.

Results

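The long RNAs and the proximal microRNAs (miRNAs) of the imprinted Dlk1-Dio3 domain of mouse chromosome 12 were followed through heart development. Long RNA members were the loci lying wholly within chr12:110680000-111530000 (mm9), which gave 14 of 35299 loci. Small RNA members were the mature miRNAs of 14 hairpins chosen by name, which gave 27 of 1908 mature miRNAs. C57BL/6 hearts came from embryos of day 10.5 (E10.5), day 14.5 (E14.5) and day 17.5 (E17.5), from neonates and from adults, with no genotype or treatment given in the labels. The 10 libraries make 1 of each assay per stage, so replicate spread is unknown, no test between stages could be run, and a value called higher or lower is so in these libraries. The labels name the cell type as cardiomyocyte and the source as heart tissue, and in bulk tissue fewer cells of a type and less RNA per cell cannot be told apart. The sources used here do not give the ages of the neonatal and adult animals, their sex or whether animals were pooled.

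The Dlk1-Dio3 domain is expressed from 1 parental chromosome. The maternal copy gives the long non-coding RNAs Meg3, Rian and Mirg together with a large group of miRNAs, and the paternal copy gives the protein-coding genes Dlk1, Rtl1 and Dio3. Dlk1 encodes a transmembrane protein related to the Notch ligands, Rtl1 a protein derived from a retrotransposon, and Dio3 the deiodinase that inactivates thyroid hormone. Some of the maternal miRNAs are read from the strand opposite to Rtl1 and can direct cleavage of its transcript. In many tissues RNAs of the domain are abundant in the embryo and scarce in the adult.

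All 27 mature names and all 14 hairpins were found in the RefSeq miRNA table (GRCm38.p6), on the plus strand of chromosome 12. Along the chromosome the hairpins lay in 3 groups. On the Meg3 side were miR-770, miR-673, miR-493, miR-337, miR-540 and miR-665, antisense to Rtl1 were miR-431, miR-433, miR-127, miR-434, miR-432 and miR-136, and on the Rian side were miR-341 and miR-370. The mature sequences below, from RefSeq, are those of the most abundant members and of those whose values stood apart from their neighbours, with the seed (bases 2 to 8) in capitals.
miR-770-3p: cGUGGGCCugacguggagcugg
miR-337-5p: cGGCGUCAugcaggaguugauu
miR-540-3p: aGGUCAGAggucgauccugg
miR-540-5p: cAAGGGUCacccucugacucugu
miR-433-3p: aUCAUGAUgggcuccucggugu
miR-127-3p: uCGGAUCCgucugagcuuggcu
miR-434-5p: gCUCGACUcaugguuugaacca
miR-434-3p: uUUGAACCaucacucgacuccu
miR-136-5p: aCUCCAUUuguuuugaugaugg
miR-136-3p: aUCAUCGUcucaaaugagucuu
miR-341-3p: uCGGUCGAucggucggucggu
miR-370-3p: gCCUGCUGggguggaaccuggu

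The 27 members carried 27 distinct seeds, so no pair of them shared one. Seeds were shared with miRNAs that are no members in 3 cases, miR-673-5p with miR-6985-3p, miR-540-3p with miR-6915-5p and miR-370-5p with miR-1193-3p, the last of which belongs to the distal miRNAs of the same domain. miR-540-3p, the miRNA named in the series title, comes from the 3p side of a hairpin of 67 bases at chr12:109586080-109586146 (GRCm38.p6, plus strand), shown with both mature arms in capitals, together with the hairpins of miR-136 and miR-434, which gave counts from both arms.
miR-540 hairpin: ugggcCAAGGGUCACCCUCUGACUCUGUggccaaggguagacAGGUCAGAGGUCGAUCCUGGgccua
miR-136 hairpin: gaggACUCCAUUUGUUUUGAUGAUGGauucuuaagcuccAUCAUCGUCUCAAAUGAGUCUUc
miR-434 hairpin: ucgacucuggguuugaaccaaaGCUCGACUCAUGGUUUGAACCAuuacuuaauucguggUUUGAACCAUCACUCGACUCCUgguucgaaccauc

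Total miRNA counts per library lay between 10479309 and 12953867, and 3 counts, the limit that a count of 0 allows, stand for 0.232 to 0.286 counts per 1000000 (CPM). The 10 most abundant miRNAs took 67.2% of counts in the adult, against 39.2% at E10.5. CPM is a share of the library. Scaling by each library's median ratio to the miRNAs' geometric means (median ratio scaling) moved log2 ratios of the adult to E10.5 up by 2.38. Those of the adult to the neonatal stage moved up by 1.20, so the size of miRNA differences depends on the scaling. In log2(CPM + 1), used below, the members' medians moved less, from -5.23 to -2.99 and from -2.98 to -2.04. For long RNA the same change of scaling moved log2 ratios by no more than -0.0231. Cardiac muscle miRNAs (5 of 5 found) summed to 242063 CPM in the adult, against 51949 CPM at E10.5. Most of this was miR-1a-3p (224767 against 42165 CPM), while miR-208b-3p alone was lower in the adult, at 24.3 against 704 CPM. Endothelial miRNAs (2 of 2) summed to at least 21099 CPM in every library. Those of fibroblasts and smooth muscle (4 of 4) summed to 68373 CPM in the adult, against 139274 CPM at E10.5. Most of this was miR-143-3p (66790 against 125040 CPM). By ratio miR-199a-5p (1504 against 13991 CPM) and miR-214-3p (47.3 against 160 CPM) differed more. Blood miRNAs (4 of 4) were higher in the adult, at 449 CPM against 236 CPM at E10.5. Some lists were lower in the adult as the members were. Epithelial miRNAs (3 of 3) were at 10.7 CPM against 992 CPM at E10.5, and the liver miRNA (1 of 1) at 33.3 CPM against 894 CPM. The early embryonic list (1 of 2 found) was at 0.154 CPM against 179 CPM. The part of any of these lists in the members' values was not tested. Neural miRNAs (2 of 2) stood at 405 to 837 CPM in 4 libraries and at 13037 CPM in the neonatal one. Nearly all of the neonatal value was miR-9-5p (13011 CPM). miR-124-3p, the defining neuronal miRNA, was also highest there, at 26.5 CPM against 1.47 to 3.05 CPM in the other libraries.

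Long RNA levels were read as FPKM, fragments per 1000 bases of transcript per 1000000 fragments, which are comparable between loci per length. The table gives positions and 19 UCSC transcript identifiers for the members, none of which was found in the name tables used here, so loci are called by their position and span on mm9 and no gene name is given to any of them. Of the 14 loci, 11 reached 1 FPKM in at least 1 library, 6 carried no identifier, and 4 shared the interval chr12:110827865-110833613, of which 1 was listed at 0 in every library. The sources used here do not say whether the long RNA libraries are stranded, so reads of rows that share an interval cannot be told apart. No member lay beyond position 110987665. Just outside the rule, 5 rows at chr12:111140610-111821271 cross the end of the interval, and the most abundant of them had 44.8 FPKM at E10.5 and then 39.6 at E14.5, 40.4 at E17.5, 45.3 at the neonatal stage and 44.8 in the adult.

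The level of the domain's long RNA was high through gestation and low in the adult heart. Summed over the 14 loci it was 220 FPKM at E10.5, followed by 265 at E14.5, 257 at E17.5, 121 at the neonatal stage and 20.9 in the adult. Relative to E10.5 this made 120% at E14.5, 117% at E17.5, 55.0% at the neonatal stage and 9.50% in the adult. The sum thus stood above its E10.5 level in both later embryonic libraries and was lowest in the adult library.

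A pair of loci held most of that level. The longest, at chr12:110842059-110899921 with a span of 57862 bases, had 111 FPKM at E10.5, then 113 at E14.5, 101 at E17.5, 52.0 at the neonatal stage and 8.75 in the adult. A 30722-base locus at chr12:110779213-110809935 had 65.6 FPKM at E10.5 and then 92.9 at E14.5, 86.7 at E17.5, 50.3 at the neonatal stage and 9.79 in the adult. The 57862-base locus had the higher level in the embryonic and neonatal libraries, and the 30722-base locus in the adult. In the adult the 57862-base locus was at 7.85% and the 30722-base locus at 14.9% of the E10.5 level, log2(FPKM + 1) differences of -3.53 and -2.63.

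The first locus of the interval, 7469 bases at chr12:110691432-110698901, followed another course. Its level was 8.01 FPKM at E10.5, followed by 23.7 at E14.5, 32.6 at E17.5 and 5.95 at the neonatal stage, and it was listed at 0 in the adult. It was the single member locus at least 2-fold higher at E14.5 than at E10.5 (295% of the E10.5 level, log2 difference 1.45). At E17.5 it was at 407% of the E10.5 level, and at the neonatal stage it was at 18.3% of the E17.5 level, log2 difference -2.27, the largest at that step among the members. Across the 5 libraries its highest level was that at E17.5, late in gestation, while the 57862-base locus was nearly level between E10.5 and E17.5.

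The last member along the chromosome, 14475 bases at chr12:110973190-110987665, had 12.6 FPKM at E10.5, then 12.3 at E14.5, 13.8 at E17.5, 4.94 at the neonatal stage and 1.05 in the adult. Like the 57862-base locus it was nearly level within gestation, and in the adult it was at 8.36% of its E10.5 level. At the neonatal stage it was already at 35.8% of the E17.5 level, against 51.4% for the 57862-base locus and 58.0% for the 30722-base locus.

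Between the long loci lay the interval of 5748 bases that 4 rows share. The first of these rows had 4.29 FPKM at E10.5 and then 6.15 at E14.5, 5.65 at E17.5, 1.20 at the neonatal stage and 0.197 in the adult. In the second the levels were 8.28, 7.86, 6.28, 1.76 and 0.374 FPKM at the same stages, and in the fourth 3.63, 4.40, 4.59, 1.98 and 0.326 FPKM. All 3 rows with a level were lower at the neonatal stage than at E17.5 and lowest in the adult, at 4.58%, 4.52% and 8.97% of E10.5. Since the split of reads among these rows is the authors', the order of the rows is uncertain.

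Of the remaining named loci, which carry no identifier, none exceeded 2.03 FPKM in any library. The second row of the 57862-base interval had 1.45 FPKM at E10.5, followed by 1.80 at E14.5, 2.03 at E17.5, 0.785 at the neonatal stage and 0.207 in the adult. A locus of 3065 bases at chr12:110833631-110836696 had 1.49, 1.33, 1.40, 0.897 and 0.120 FPKM at these stages. Both followed the long loci in being lowest in the adult. A locus of 558 bases at chr12:110816614-110817172 had 1.85, 0.314, 1.14 and 0.328 FPKM through the neonatal stage and was listed at 0 in the adult. One of 1132 bases at chr12:110836800-110837932 had 0.769, 1.01, 0.295 and 0.472 FPKM and was likewise listed at 0 in the adult. These last 2, the shortest of the named loci, moved up and down between stages without an order. The 2 members that stayed under 1 FPKM while above 0 lay between 0.0181 and 0.952 FPKM.

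**Figure D1:**
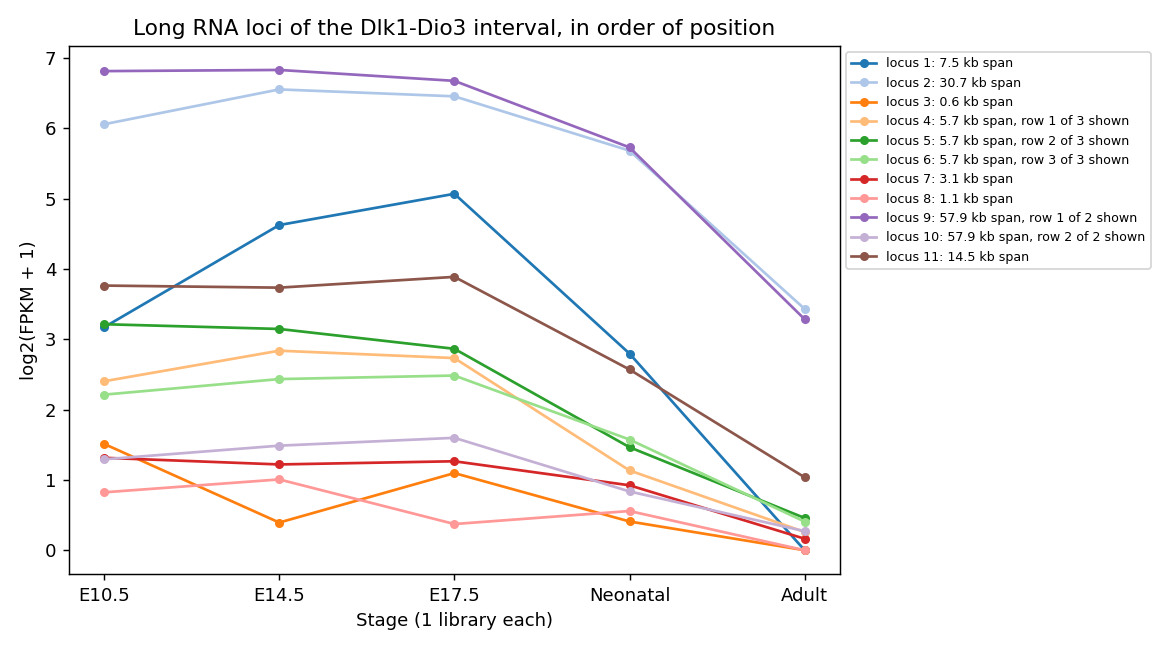
The level of the 11 member loci that reached 1 FPKM, as log2(FPKM + 1) on the y axis, is plotted by stage on the x axis, with 1 point per library and loci numbered in order of position. The 57862-base and 30722-base loci run highest, the 7469-base locus peaks at E17.5 with 32.6 FPKM, and all 11 are lowest in the adult.

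The summed level of the member miRNAs was lower at each later stage. They took 4.14% of all miRNA counts at E10.5, then 2.37% at E14.5, 1.88% at E17.5, 1.04% at the neonatal stage and 0.0920% in the adult (exact Clopper-Pearson 95% interval 0.0903 to 0.0936%). In CPM the sum stood at 57.4% of its E10.5 value at E14.5, 45.4% at E17.5, 25.2% at the neonatal stage and 2.22% in the adult. Under median ratio scaling the same sum was 93.4%, 87.7%, 56.9% and 11.6% of E10.5. By both scalings the adult library was the lowest, but how far the embryonic levels differed depended on the scaling. Intervals here and below cover counting error only, and the sources used here do not say if the counts are of reads or of molecular identifiers. Of the 27 members, 25 had at least 10 counts and 21 at least 100 counts in some library, miR-432 had no count in any, and 8 had no count in the adult.

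The miRNAs antisense to Rtl1 gave the most counts. miR-127-3p had 18045 CPM at E10.5 and then 13104 at E14.5, 11609 at E17.5, 6091 at the neonatal stage and 642 in the adult, where it was at 3.56% of the E10.5 value (95% interval 3.48 to 3.64%). The other arm, miR-127-5p, had 3184, 2882, 2634, 1597 and 213 counts at these stages. The hairpin was the most abundant of the set at every stage. Under median ratio scaling miR-127-3p was slightly higher at E14.5 than at E10.5 (log2 difference 0.24) and at E17.5 than at E14.5 (0.07), so its embryonic course depends on the scaling.

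miR-433-3p began with 7109 CPM at E10.5 and had 2891 at E14.5, 1732 at E17.5, 845 at the neonatal stage and 39.1 in the adult. The adult value was 0.549% of that at E10.5 (0.502 to 0.600%). miR-434-5p had 3322, 2038, 1646, 1159 and 87.3 CPM at the 5 stages, which left 2.63% in the adult (2.48 to 2.79%), and its partner miR-434-3p had 2338, 1184, 1029.8, 788 and 55.1 CPM. Thus miR-433-3p was the more abundant of the 2 hairpins at E10.5 and the less abundant in the adult.

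miR-431-5p had 272 CPM at E10.5, followed by 129 at E14.5, 91.4 at E17.5, 41.8 at the neonatal stage and 1.85 in the adult, and miR-431-3p had 89.2, 34.4, 16.3, 13.5 and 0.463 CPM. Both arms were under 1% of their E10.5 CPM in the adult, at 0.682% (0.436 to 1.02%) for the 5p arm and 0.519% for the 3p arm.

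miR-136 kept the largest share of its E10.5 level. miR-136-3p had 186 CPM at E10.5, then 132 at E14.5, 119 at E17.5, 68.2 at the neonatal stage and 11.3 in the adult, 6.09% of E10.5 (5.12 to 7.21%). miR-136-5p had 40.8, 46.2, 47.5, 34.4 and 3.47 CPM, and its adult value was 8.51% of E10.5 (6.11 to 11.6%). Of the 21 members with at least 100 counts, miR-136-5p was the one whose CPM at E14.5 was above that at E10.5 (log2 difference 0.17), while under median ratio scaling this held for miR-136-5p (0.85), miR-127-5p (0.42), miR-127-3p and miR-136-3p (0.21).

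On the Rian side, miR-370-3p had 6907 CPM at E10.5 and then 2730.4 at E14.5, 1462 at E17.5, 699 at the neonatal stage and 21.4 in the adult. At 0.310% of the E10.5 value (0.274 to 0.348%) this was the largest difference among the members in log2(CPM + 1), at -8.27, or -5.93 under median ratio scaling. Its other arm, miR-370-5p, had 480 counts at E10.5, followed by 201 at E14.5, 96 at E17.5, 67 at the neonatal stage and 1 in the adult. That is 0.169% of its E10.5 CPM (0.00426 to 0.944%), so by ratio miR-370-3p was not the lowest member. miR-341-3p had 6853 counts at E10.5, then 3078 at E14.5 and 2181 at E17.5. It was at 93.7 CPM at the neonatal stage and at 3.78 CPM, with 49 counts, in the adult, 0.578% of its E10.5 CPM (0.427 to 0.766%). Both hairpins of this group were thus under 1% of E10.5 in the adult in CPM.

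On the Meg3 side the most abundant member was miR-337-5p, with 1023 CPM at E10.5 and then 491 at E14.5, 378.7 at E17.5, 228 at the neonatal stage and 25.6 in the adult. Its adult value was 2.50% of E10.5 (2.24 to 2.79%). miR-493-5p had 278, 125.6, 87.3, 51.2 and 2.01 CPM at the 5 stages, and miR-493-3p had 48.6, 19.3, 10.2 and 4.24 CPM through the neonatal stage and no count in the adult, which allows up to 0.232 CPM. miR-673-5p had 172, 91.4, 76.3, 40.1 and 5.10 CPM, and miR-673-3p had 83.5, 42.0, 28.0, 15.7 and 1.39 CPM. The neighbours miR-673 and miR-493 thus ended apart, with adult levels of both arms together at 2.53% and 0.615% of E10.5.

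miR-540-3p had 187 CPM at E10.5, followed by 60.2 at E14.5, 37.7 at E17.5, 15.9 at the neonatal stage and 1.47 in the adult. Its adult value was 0.786% of that at E10.5 (0.472 to 1.23%) and 9.25% of that at the neonatal stage (5.45 to 14.8%). miR-540-5p, the lesser arm, had 10 counts at E10.5, then 1 at E14.5, 1 at E17.5 and none later. Among the proximal counts miR-540-3p made 0.451% at E10.5 and then 0.254% at E14.5, 0.200% at E17.5, 0.152% at the neonatal stage and 0.159% in the adult. Its share of the group was thus highest at E10.5. miR-665-3p, encoded next to it, had 14.3, 5.64, 3.58 and 1.73 CPM through the neonatal stage and no count in the adult.

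miR-770-3p was the single member past the 2-fold limit of log2(CPM + 1) in the higher direction at any of the 4 steps between neighbouring stages, while miR-341-5p, with 10 counts at the neonatal stage against 1 at E17.5, stayed within it. It had 245 CPM at E10.5, followed by 79.7 at E14.5 and 48.3 at E17.5, but 100.5 CPM at the neonatal stage, and then 1.54 CPM in the adult. The neonatal value was 207.8% of that at E17.5 (189 to 229%), a log2 difference of 1.04 in CPM and 1.27 under median ratio scaling. The partner arm miR-770-5p had 36 counts at the neonatal stage and 34 at E17.5, close to level. The neonatal library is the one with 13037 CPM of neural miRNAs, and the part of this in the miR-770-3p value was not tested.

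**Figure D2:**
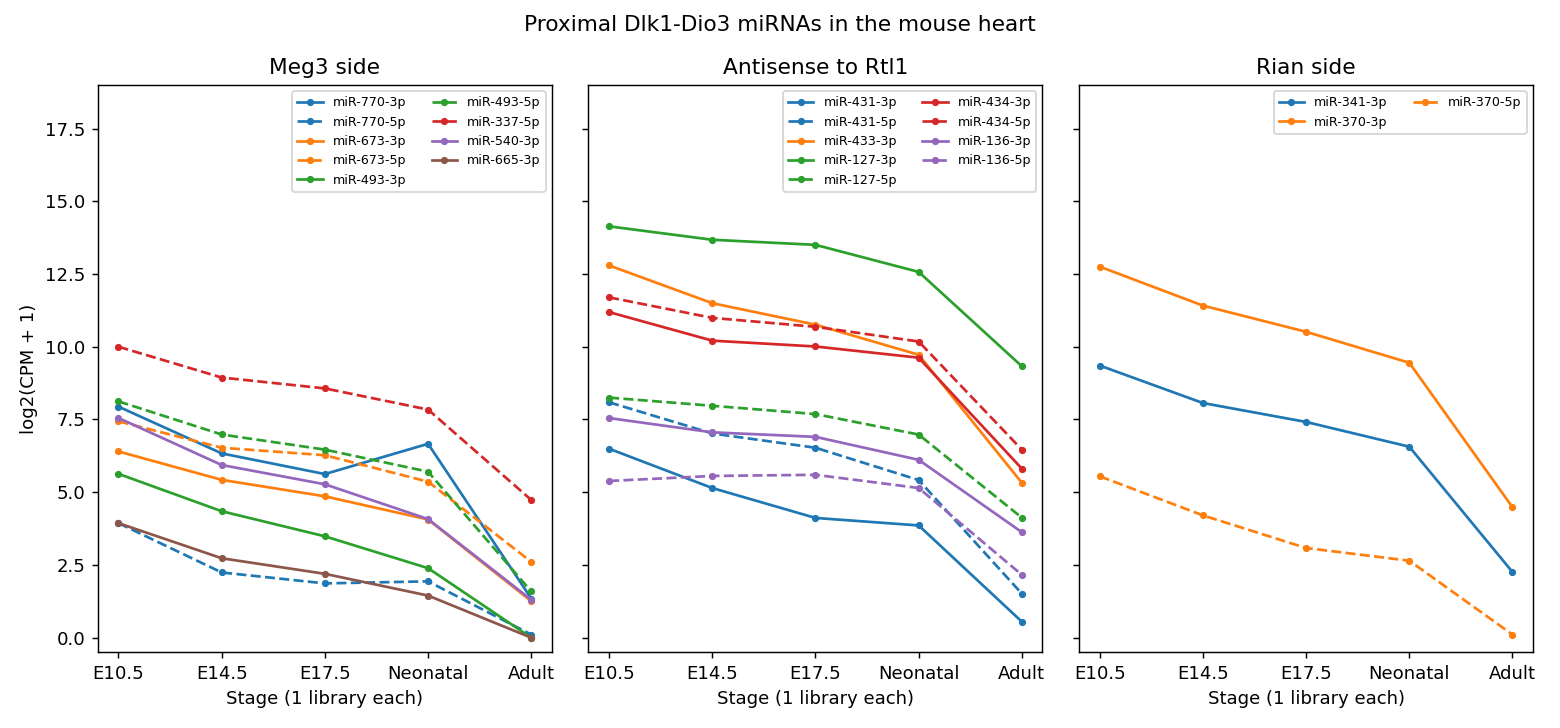
log2(CPM + 1) of the 21 member miRNAs with at least 100 counts in some library is plotted by stage, with 1 point per library and 1 panel for each of the 3 groups along the domain; solid lines are 3p arms and arms of 1 hairpin share a colour, with 5p arms dashed. miR-127-3p runs highest throughout, the neonatal point of miR-770-3p lies above its E17.5 point, and every line ends lowest in the adult.

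E14.5 was compared with E10.5 first. Of 25 members with at least 10 counts in either library, 15 were at least 2-fold lower at E14.5 in log2(CPM + 1) and none higher, where 27.9% of all 763 miRNAs compared were lower and 2.88% higher. The members' median log2 difference was -1.13, beside -0.64 over all miRNAs. All 4 compared members of the Rian side, 7 of 11 of the Meg3 side and 4 of 10 antisense to Rtl1 were lower. The scaling sets this count: under median ratio scaling 1 member was lower, miR-770-5p, and none higher, where 5.11% of all miRNAs were lower and 7.47% higher, and the median was -0.45. Among 11 loci compared, 1 was higher, the 7469-base locus, and 1 lower, the 558-base locus, where 4.95% of all loci were higher and 1.95% lower. The loci's median log2 difference was 0.18, beside -0.04 over all loci.

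Between E17.5 and E14.5 little differed at the 2-fold limit. Of 24 members compared, 2 were lower at E17.5, miR-370-5p (log2 difference -1.12) and miR-431-3p (-1.03), and none higher, where 5.6% of all miRNAs were lower and 1.03% higher. None was lower or higher under median ratio scaling, where 3.24% of all miRNAs were lower and 1.18% higher. The median of the members was -0.51, beside -0.20 over all miRNAs. None of 11 loci was higher or lower, where 1.71% of all loci were higher and 1.55% lower, and their median was 0.05.

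At the neonatal stage, set against E17.5, 5 of 24 members were lower and 1, miR-770-3p, was higher, where 9.51% of all miRNAs were lower and 5.05% higher. The 5 lower members were miR-540-3p (log2 difference -1.20), miR-431-5p (-1.11), miR-493-3p (-1.09), miR-370-3p (-1.06) and miR-433-3p (-1.03). All 5 lay close to the limit and within it under median ratio scaling, where 6.24% of all miRNAs were lower and 5.94% higher. The median was -0.74, beside -0.23 over all miRNAs. Of 10 loci compared 4 were lower and none higher, where 2.72% of all loci were lower and 2.79% higher. These were the 7469-base locus, the 14475-base locus (-1.32) and the first 2 rows of the 5748-base interval (-1.60 and -1.40), and the loci's median was -0.93, beside -0.03 over all loci.

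Among the 4 steps between neighbouring stages, that between the adult and the neonatal stage had the most members past the 2-fold limit. Of 23 members compared 22 were lower in the adult and none higher, where 43.2% of all miRNAs were lower and 6.76% higher. The same number, 22, was lower under median ratio scaling, where 29.2% of all miRNAs were lower. The median log2 difference was -2.98 by CPM and -2.04 by median ratio scaling, beside -0.85 and -0.18 over all miRNAs. As a share of the neonatal CPM the adult value was 1.54% for miR-770-3p, 3.06% for miR-370-3p, 4.62% for miR-433-3p, 10.5% for miR-127-3p and 16.6% for miR-136-3p. Of 7 loci compared 6 were lower in the adult and none higher, where 9.85% of all loci were lower and 11.8% higher, with a median of -1.53 beside 0.04 over all loci.

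In the adult, set against E10.5, 24 of 25 members were lower and none higher, where 68.2% of all miRNAs were lower and 7.97% higher. The single exception was miR-540-5p, with no count in the adult, against 10 at E10.5. Under median ratio scaling 23 were lower, where 33.1% of all miRNAs were. The members' median log2 difference was -5.23 by CPM and -2.99 by median ratio scaling, beside -1.59 and -0.40 over all miRNAs. By group the median in CPM was -5.14 on the Meg3 side, -5.02 antisense to Rtl1 and -6.27 on the Rian side. All 10 loci compared were lower, where 17.9% of all loci were lower and 21.7% higher, and their median log2 difference was -2.39, beside 0.00 over all loci. The adult comparisons share the adult library, so they are not independent of each other.

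Within the proximal counts the make-up shifted toward the miRNAs antisense to Rtl1. These took 76.6% of proximal counts at E10.5, then 83.4% at E14.5, 87.7% at E17.5, 87.9% at the neonatal stage and 93.2% in the adult. The Rian side took 18.4%, 12.7%, 8.71%, 7.66% and 2.74% at these stages, and the Meg3 side 5.00%, 3.87%, 3.58%, 4.42% and 4.05%. Such shares do not depend on the scaling of the library. miR-127-3p alone made 43.6% of proximal counts at E10.5 and then 55.2% at E14.5, 61.7% at E17.5, 58.4% at the neonatal stage and 69.8% in the adult. With miR-127-3p left out, the Rian side still held 32.6% at E10.5, followed by 28.3% at E14.5, 22.8% at E17.5, 18.4% at the neonatal stage and 9.10% in the adult.

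**Figure D3:**
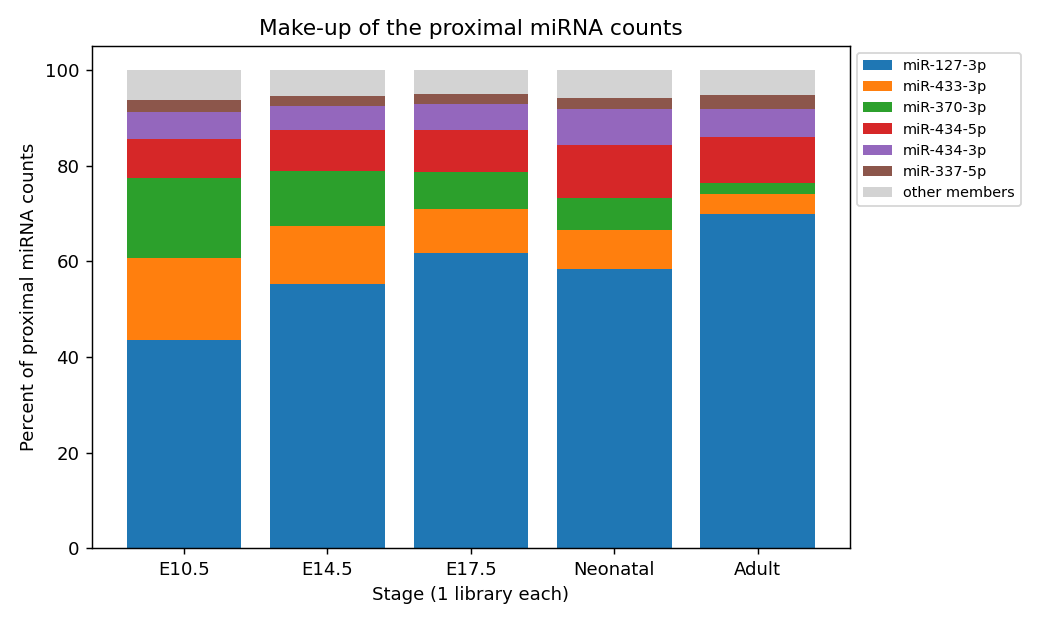
Stacked bars show the percent of proximal miRNA counts taken by the 6 most abundant members and by the others, for 1 library per stage. miR-127-3p widens to 69.8% in the adult while miR-370-3p narrows to 2.33% and miR-433-3p to 4.25%.

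The position along the domain did not order the hairpins by how much of their E10.5 level the adult library held. Counted per 1000 of miR-127-3p, miR-370-3p stood at 383 at E10.5, then 208.4 at E14.5, 125.9 at E17.5, 115 at the neonatal stage and 33.3 in the adult. miR-433-3p, from the hairpin next to miR-127, stood at 394, 221, 149, 139 and 60.8. miR-136-5p, further along on the other side, stood at 2.26, 3.52, 4.09, 5.65 and 5.41. Summed over both arms, the adult level in CPM was 0.549% of E10.5 for miR-433 and 0.642% for miR-431, and 3.59%, 2.52% and 6.53% for miR-127, miR-434 and miR-136, although all 5 belong to the group antisense to Rtl1. On the Meg3 side miR-493, miR-770 and miR-540 stood at 0.615%, 0.625% and 0.782%, and miR-337 and miR-673 at 2.50% and 2.53%. On the Rian side the values were 0.309% for miR-370 and 0.575% for miR-341. Among the hairpins with counts in the adult library, 5 were thus at or above 2.50% and 7 at or below 0.782%, with none between. Both kinds occurred in the Meg3 and the antisense groups. The gap holds only for point values of both arms together, as miR-673-3p alone was at 1.66% (0.982 to 2.65%). miR-665 had no adult count, and the interval of its 3p arm reached up to 2.01%.

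**Figure D4:**
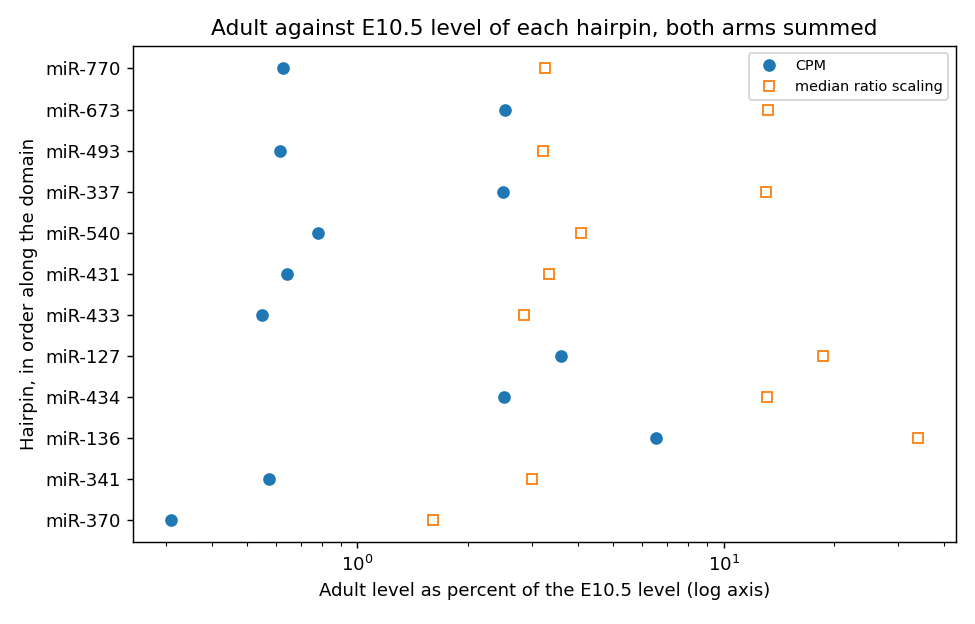
For each of the 12 hairpins with counts in the adult, the adult level of both arms together as percent of the E10.5 level is plotted on a log x axis, with hairpins down the page in order along the domain; filled circles are CPM and open squares median ratio scaling. miR-136, miR-127, miR-673, miR-434 and miR-337 lie to the right of the others. The change of scaling moves all hairpins by the same factor, so it cannot alter their order.

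The GC content of the mature sequence was set beside these differences as a description across miRNAs. Over the 21 members with at least 100 counts, Spearman's rho of GC content with the log2 difference was -0.61 for E14.5 against E10.5, -0.49 for E17.5 against E14.5 and -0.28 for the adult against E10.5, and -0.08 and -0.05 in the other 2 comparisons. In the same order as the first 3 values, rho over 42 distal miRNAs of the domain was -0.23, -0.04 and -0.01, and over 317 miRNAs outside the domain it was -0.17, -0.01 and -0.19. For the neonatal stage against E17.5 and the adult against the neonatal stage, rho was 0.004 and 0.15 over the distal miRNAs. Outside the domain it was -0.15 and -0.16 there, further below 0 than in the members. The points share their libraries and arms share hairpins, so no p is given. miR-136-5p, with the smallest adult difference from E10.5 of these 21, had a GC content of 36.4%, and miR-370-3p, with the largest, had 68.2%. miR-433-3p, with 54.5%, was nonetheless further below E10.5 in the adult than miR-127-3p, with 59.1%.

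Most hairpins gave nearly all their counts from 1 arm in every library. The 3p arm held at least 97.5% of the counts of miR-127 and over 99% of those of miR-370, miR-433, miR-341 and miR-540 in each library with enough counts. For miR-337 the 3p arm held at most 0.226%. Such shares compare arms within a library and do not depend on scaling.

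In 5 hairpins the lesser arm held a larger share in most libraries. For miR-136 the 3p arm held 82.0% at E10.5 (80.4 to 83.5%) and then 74.1% at E14.5, 71.4% at E17.5, 66.5% at the neonatal stage (63.9 to 69.0%) and 76.6% in the adult (69.9 to 82.4%). Its share was thus lower in the neonatal library than at E10.5 by more than counting error, and the adult interval overlapped those of E14.5 and E17.5 as well as that of E10.5. For miR-493 it held 14.9% at E10.5 (13.7 to 16.1%), followed by 13.3% at E14.5, 10.5% at E17.5, 7.65% at the neonatal stage (5.80 to 9.86%) and 0 of 26 counts in the adult, which allows up to 13.2%. For miR-431 the 3p share was 24.7% at E10.5, then 21.1% at E14.5, 15.2% at E17.5, 24.4% at the neonatal stage and 20% in the adult. For miR-673 the share was 32.6%, 31.5%, 26.9%, 28.1% and 21.4% at the 5 stages, and for miR-434 it was 41.3%, 36.7%, 38.5%, 40.5% and 38.7%. The arms of miR-434, each at over 1000 CPM at E10.5, therefore kept close to the same ratio in the adult.

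**Figure D5:**
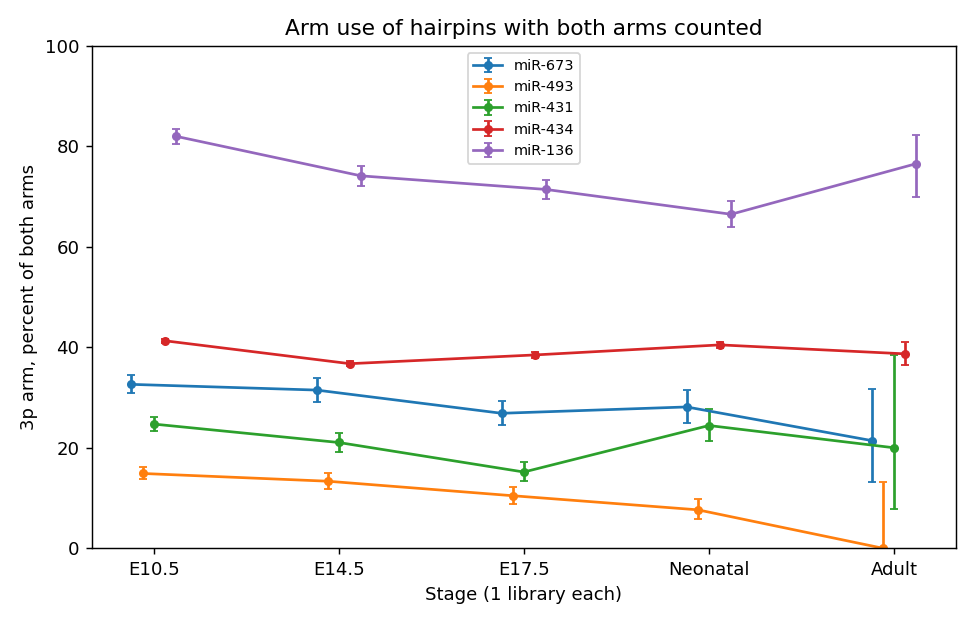
The 3p arm's percent of the counts of both arms is plotted by stage for miR-136, miR-434, miR-673, miR-431 and miR-493, 1 library per stage, with bars giving exact Clopper-Pearson 95% intervals that cover counting error only; hairpins are offset sideways. miR-136 lies highest with its lowest point of 66.5% at the neonatal stage, and miR-493 reaches 0 in the adult with an upper limit of 13.2%.

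The distal miRNAs of the domain, which lie beyond Rian in and around Mirg, were measured in the same libraries. Proximal counts made 40.4% of all proximal and distal counts at E10.5 (40.3 to 40.5%) and then 41.2% at E14.5, 42.6% at E17.5, 41.6% at the neonatal stage and 41.0% in the adult (40.4 to 41.6%). The balance of both clusters thus lay between 40.4% and 42.6% in all 5 libraries. It rested on miR-127-3p, without which the proximal share was 27.6% at E10.5 and then 23.9% at E14.5, 22.1% at E17.5, 22.9% at the neonatal stage and 17.3% in the adult. In CPM the distal sum was 55.5% of its E10.5 value at E14.5, 41.5% at E17.5, 23.9% at the neonatal stage and 2.16% in the adult, and by median ratio scaling it was 90.4%, 80.1%, 54.0% and 11.3%. In the adult, set against E10.5, all 62 distal miRNAs with enough counts were lower in CPM, where 68.2% of all miRNAs were, and 55 were lower by median ratio scaling, where 33.1% were. Their median log2 difference was -4.87 by CPM and -3.10 by median ratio scaling, so it was nearer 0 than that of the members by CPM and further below 0 by median ratio scaling. The most abundant were miR-541-5p, with 340 CPM in the adult against 17830 at E10.5, and miR-379-5p, with 477 CPM against 11390. With 1 library per stage no difference between the lists was tested. miRNAs of other imprinted genes, among them miR-335-3p of Mest with 195 CPM in the adult against 40031 at E10.5, were also lower in the adult in 9 of 9 compared by both scalings, with a median of -6.38 by CPM and -4.06 by median ratio scaling.

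Long RNA and miRNA of the domain were set side by side by stage, in their own units. At E17.5 the summed locus level was 117% of E10.5, while the summed miRNA level was 45.4% by CPM and 87.7% by median ratio scaling. In the adult the loci stood at 9.50%, and the miRNAs at 2.22% in CPM and 11.6% under median ratio scaling. Under the CPM scaling the miRNAs were thus further below their E10.5 level than the loci at each later stage, and under median ratio scaling this did not hold in the neonatal and adult libraries.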

How the data were processed

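Long RNA and small RNA were measured in mouse heart tissue at 5 stages, with 1 library per stage and assay and groups taken from the sample titles and stages. The authors deposited FPKM values per assembled locus, per the file headers, and whole-number counts per mature miRNA in a table whose name carries FPKM but whose columns sum to different totals. Per the submitters' processing notes the build was mm9 and the tools HISAT, HISAT2, Bowtie, Bowtie2 and RSEM, with no versions or roles. Per the labels' protocols, small RNA of 18 to 30 nucleotides was ligated to adapters with unique molecular identifiers; the sources used here do not describe the long RNA preparation. Since total counts bound the precision, intervals on shares and ratios are exact Clopper-Pearson 95% intervals for counting error. Long RNA depth is not stated; steps between loci under 0.05 FPKM gave relative depths of 0.780 in the adult and 1.00 to 1.05 in the other libraries, with E17.5 at 1, and 70.9% to 73.2% of such loci lay near a step.

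Counts were divided by the library total (CPM). Comparisons took miRNAs with 10 or more counts, and loci with 1 FPKM or more, in at least 1 of both stages. Calls need a log2(value + 1) difference of 1 in size, later minus earlier stage. They follow size alone and are no test, and log2(value + 1) understates the differences of low features. Arm shares need at least 20 counts. The calling was run on simulated counts with equal numbers of raised and lowered miRNAs, which these data do not have. A set recovery was required only under median ratio scaling, so this check does not bear on the CPM calls. Members with at least 100 counts or 1 FPKM in some library are named, with both arms of miR-540. Members and lists were chosen with earlier results of these data known. Alternatives were another pseudocount, filter, scaling or total, rows that share an interval averaged, and members or the neonatal library left out. Median ratio scaling used 750 miRNAs or 18359 loci above 0 in all libraries. Python 3.11.15, pandas 2.3.3, NumPy 2.4.6, SciPy 1.17.1 and matplotlib 3.10.9 were used. Mitochondrial loci were used only in scaling, and host gene names for loci were not used here.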

Additional observations from a re-analysis of the deposited data

How the results depend on the processing

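No paired analysis was possible because each stage has 1 library per assay. Median ratio scaling left 1 member miRNA lower at E14.5 than at E10.5, 0 at E17.5 than at E14.5 and 0 at the neonatal stage than at E17.5. It put the members' medians at -0.45 (E14.5 minus E10.5), -2.04 (adult minus neonatal) and -2.99 (adult minus E10.5), and the summed loci at 222, 266, 257, 121 and 20.7 FPKM in stage order. Among the 21 miRNAs with at least 100 counts, both adult comparisons kept direction and call under it for all 21, while 12, 2 and 5 lost their call at the 3 earlier steps, and 3 uncalled values changed sign at each of the first 2 steps; all 11 named loci kept theirs in all 5 comparisons. A pseudocount of 5 left 0 miRNAs lower at E17.5 than at E14.5. At the neonatal stage against E17.5, 1 member miRNA was higher in the main setting, 0 with a pseudocount of 5 and 2 with 0.1. A pseudocount of 0.1 gave 1 locus lower and 1 higher at E17.5 than at E14.5, and 7 lower at the neonatal stage than at E17.5.

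Scaling FPKM to the same total without mitochondrial loci gave 0 loci lower and 11 higher at E14.5 than at E10.5, 0 lower and 1 higher at E17.5 than at E14.5, and 1 lower in the adult, set against E10.5, with sums of 69.6, 568, 544.4, 267 and 47.4 FPKM. By construction this rests on 1 locus of 5711970 FPKM at E10.5, so that library was divided by 3.17 and the others by 0.441 to 0.472. Chosen after seeing the data, leaving out loci above 100000 FPKM as well gave sums of 222.6, 288, 252, 126.5 and 18.8 FPKM. Comparing the adult with E17.5 in place of the neonatal stage, also chosen afterwards, gave 10 loci and 22 miRNAs lower. Averaging rows that share an interval gave sums of 152, 194, 193, 91.0 and 15.8 FPKM. Without the 10 most abundant miRNAs the members took 6.81, 5.14, 4.48, 2.76 and 0.281% of counts. Without miR-127-3p, and with the distal list kept whole, the proximal share of the domain was 27.6, 23.9, 22.1, 22.9 and 17.3%. With 1 library per stage, the spread between animals is not known.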

Other observations

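Some miRNAs not named by the rule, whose places relative to the members were not computed, were counted too. miR-1188-5p had 3 counts in the adult library, against 633 in that of E10.5. miR-666-5p had 34 counts in the adult library and 462 in the neonatal one, against 1338 in that of E10.5.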
